A study of Homo sapiens with 18 samples.

Results

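The mitosis genes described here are 50 named genes that act from entry into mitosis to the separation of the daughter cells. They were taken by name from the 58825 genes of the count tables, and all 50 were found through their Ensembl identifiers. By role they were 6 regulators of mitotic entry, 10 mitotic kinases, 8 kinesins, 7 kinetochore and checkpoint proteins, 4 genes of anaphase and mitotic exit, 3 subunits of the chromosomal passenger complex, 4 cytokinesis genes and 8 spindle and chromosome genes. RNA-seq was performed on OVCAR-3, an established human line of high-grade serous ovarian cancer, grown in 12-well plates in RPMI and treated in stripped medium. Both agents inhibit the BET proteins, which read acetylated histones and help to recruit the machinery of transcription: i-BET858, which the study calls a bivalent inhibitor, and i-BET151. Each was given at 1 µM for 4 or 24 h, beside the vehicle DMSO for 4 or 24 h, which made 6 groups of 3 biological replicates (18 libraries) with no other treatment or genetic change. OVCAR-3 is 1 cell line, so the replicates do not sample patients, and the dose was the same for both inhibitors at both times.

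Cells switch on most of these genes as they pass from S phase to G2 and mitosis. Cyclin B with the kinase CDK1 drives entry, WEE1 and PKMYT1 hold CDK1 back, and the CDC25 phosphatases release it. PLK1, the Aurora kinases, the kinesins and the kinetochore build the spindle and attach chromosomes to it, the checkpoint kinases BUB1, BUB1B and TTK delay anaphase until attachment is complete, and CDC20 then turns on the APC/C ubiquitin ligase, which starts anaphase. Their promoters are known for CCAAT boxes, bound by NF-Y, and for the cell cycle genes homology region (CHR), bound by the DREAM complex in resting cells and by MYBL2 with MuvB, and later FOXM1, in cycling ones.

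The libraries held 27323969 to 46299994 counts each, and levels are given as CPM, in which TMM factors over the 18 libraries adjust each total. All 10 markers of the serous lineage chosen for this line were expressed (summed level 7009 to 12120 CPM, with PAX8 at 487 CPM on average), and among 14 markers of fibroblasts, leukocytes and endothelium only COL1A1 (30.2 CPM), VWF (2.70 CPM) and KDR (3.06 CPM) averaged over 1 CPM. Replicate 3 stood apart: its 6 libraries detected 17817 to 20642 genes against 23674 to 24947 in the other 12. Libraries with the same replicate number also deviated together. Calls against DMSO of the same time or between the inhibitors that change with the replicate number as a block are therefore given below. Those that change from replicates 1 and 2 alone are named. For the change of an effect between times, counts and only some of such genes are given.

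In DMSO, averaged over both times, the highest level per kilobase of exon among the mitosis genes was that of CCNB1 (104 CPM per kb), followed by UBE2C (96.9), CDC20 (86.6), TPX2 (81.5) and BIRC5 (65.6). The lowest were those of PRC1 (0.012) and NUSAP1 (0.908), both described next, followed by CDC25C (4.196), CENPE (4.31), KIF14 (4.38) and PKMYT1 (5.36). Of the 50 genes, 49 passed the filter on low counts, and PRC1, which bundles microtubules of the central spindle, did not: its highest level in any library was 1.16 CPM. In the GENCODE annotation 3181 of its 5523 exon bases lie under another gene on the same strand, and reads that fall on more than 1 gene were not counted. The annotation used for the counts is not given, and whether the overlap accounts for the level of PRC1 was not tested. NUSAP1, a spindle microtubule binder, has 3133 of 3608 exon bases under other genes on its strand. It was at 1.75 to 6.09 CPM, so its level and its changes below are uncertain.

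The promoters show what the members share outside their protein roles. RefSeq promoters (GRCh38.p14) were at hand for 40 of the 50 genes, and both strands of the 250 bases before each start were searched for TTTGAA, the core of the CHR, and for the CCAAT box. The CHR core was in 21 of the 40 promoters (52.5%) against 13.3% of 35116 promoters of all genes, the CCAAT box in 31 (77.5%) against 32.0%, and both in 19 (47.5%) against 4.69%. A match is a description of these letters and not a test of binding. The 7 promoters below are 120 bases up to the start, in lower case with both motifs and their reverse complements in capitals, and are shown because their genes carry the results that follow. PLK1 at chr16:23678769-23678888 (plus strand) and CDC20 at chr1:43358861-43358980 (plus strand) have both motifs, as does INCENP at chr11:62123891-62124010 (plus strand). BUB1B at chr15:40160949-40161068 (plus strand) has only the CHR core within these bases and KIF14 at chr1:200620752-200620871 (minus strand) only CCAAT. PTTG1 at chr5:160421735-160421854 (plus strand) has CCAAT 3 times, 2 of them overlapping on opposite strands, and NDC80 at chr18:2571437-2571556 (plus strand) has neither.
PLK1: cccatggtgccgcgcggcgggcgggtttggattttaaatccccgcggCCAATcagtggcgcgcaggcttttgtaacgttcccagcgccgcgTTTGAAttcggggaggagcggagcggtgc
CDC20: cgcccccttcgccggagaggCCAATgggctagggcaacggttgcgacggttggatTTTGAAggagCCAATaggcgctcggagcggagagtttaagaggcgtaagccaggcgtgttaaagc
INCENP: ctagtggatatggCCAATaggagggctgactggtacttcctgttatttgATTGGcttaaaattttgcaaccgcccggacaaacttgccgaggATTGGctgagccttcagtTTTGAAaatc
BUB1B: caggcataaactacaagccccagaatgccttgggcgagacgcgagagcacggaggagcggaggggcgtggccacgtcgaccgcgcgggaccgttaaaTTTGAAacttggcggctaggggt
KIF14: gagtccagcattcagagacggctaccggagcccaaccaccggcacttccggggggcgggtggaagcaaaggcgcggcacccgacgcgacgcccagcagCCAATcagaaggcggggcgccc
PTTG1: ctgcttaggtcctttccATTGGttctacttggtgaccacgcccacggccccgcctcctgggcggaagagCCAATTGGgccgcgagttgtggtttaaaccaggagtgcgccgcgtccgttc
NDC80: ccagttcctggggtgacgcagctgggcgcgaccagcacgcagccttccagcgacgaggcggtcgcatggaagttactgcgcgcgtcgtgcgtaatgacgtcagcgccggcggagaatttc

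The counts of lower and higher genes differed between the times. Those at 4 h were near the shares of all genes in the fit without the replicate block. At 4 h with i-BET858, 11 of the 49 mitosis genes were lower and 5 higher than in DMSO at an adjusted p under 0.05 (called in the text below), where 16.3% of all 17192 genes tested were lower and 14.5% higher. At 24 h only 2 were lower and 21 were higher, against 21.3% and 20.5% of 17157 genes. The median log2 fold change of the 49 genes was 0.023 at 4 h and 0.28 at 24 h, beside 0.023 and -0.012 over all genes tested. i-BET151 gave 3 lower and 2 higher at 4 h (all genes 8.43% and 7.81%), then 2 lower and 16 higher at 24 h (all genes 16.6% and 17.2%). In this fit without the block, as a share of the 49, all 4 h calls were within a few genes of that background, which was not tested. At 24 h rises were above it and falls below it with both inhibitors. Whether a lower level means fewer cells in mitosis or less of the RNA per cell cannot be told apart in these bulk libraries.

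Counts of called genes moved with the scaling and the pairing. With the replicate number as a block, 16 were lower and 10 higher at 4 h with i-BET858, against 23.0% and 22.3% of all genes. For i-BET151 the block gave 10 lower and 8 higher at 4 h, against 17.0% and 15.6%. In the blocked fit, then, falls at 4 h with i-BET858 were above the share of all genes, a difference that was not tested. Rises with i-BET858 and both kinds of call with i-BET151 were near the shares of all genes. Scaled to total counts instead of TMM, which moves the median of all genes to -0.14 at 4 h and -0.099 at 24 h with i-BET858, the counts were 17 lower and 2 higher at 4 h (all genes 21.6% and 10.2%) and 4 lower and 14 higher at 24 h (all genes 24.1% and 17.1%). The same scaling gave 2 lower and 10 higher at 24 h with i-BET151 (all genes 17.6% and 15.6%). At 4 h it gave 4 lower and 0 higher (all genes 10.2% and 6.62%), where edgeR found 12 members at an unadjusted p under 0.05 with TMM and DESeq2 called 3 lower and 3 higher. No called change of a member turned sign in any alternative. Sizes were small: at 4 h with i-BET858 1 member fell and 1 rose by at least 2-fold (all genes 7.0% and 7.08%), and at 24 h none of the 23 called members reached 2-fold (all genes 11.2% and 7.65%). Summed over the 50 genes, the level was 4778 to 5507 CPM in DMSO at 4 h, 4441 to 5542 CPM (i-BET858) and 4808 to 5411 CPM (i-BET151), and the ranges overlapped. At 24 h the same sum was 5423 to 5969 CPM in DMSO, 7188 to 7508 CPM with i-BET858 and 6543 to 7350 CPM with i-BET151, with no overlap between either inhibitor and DMSO.

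**Figure D1:**
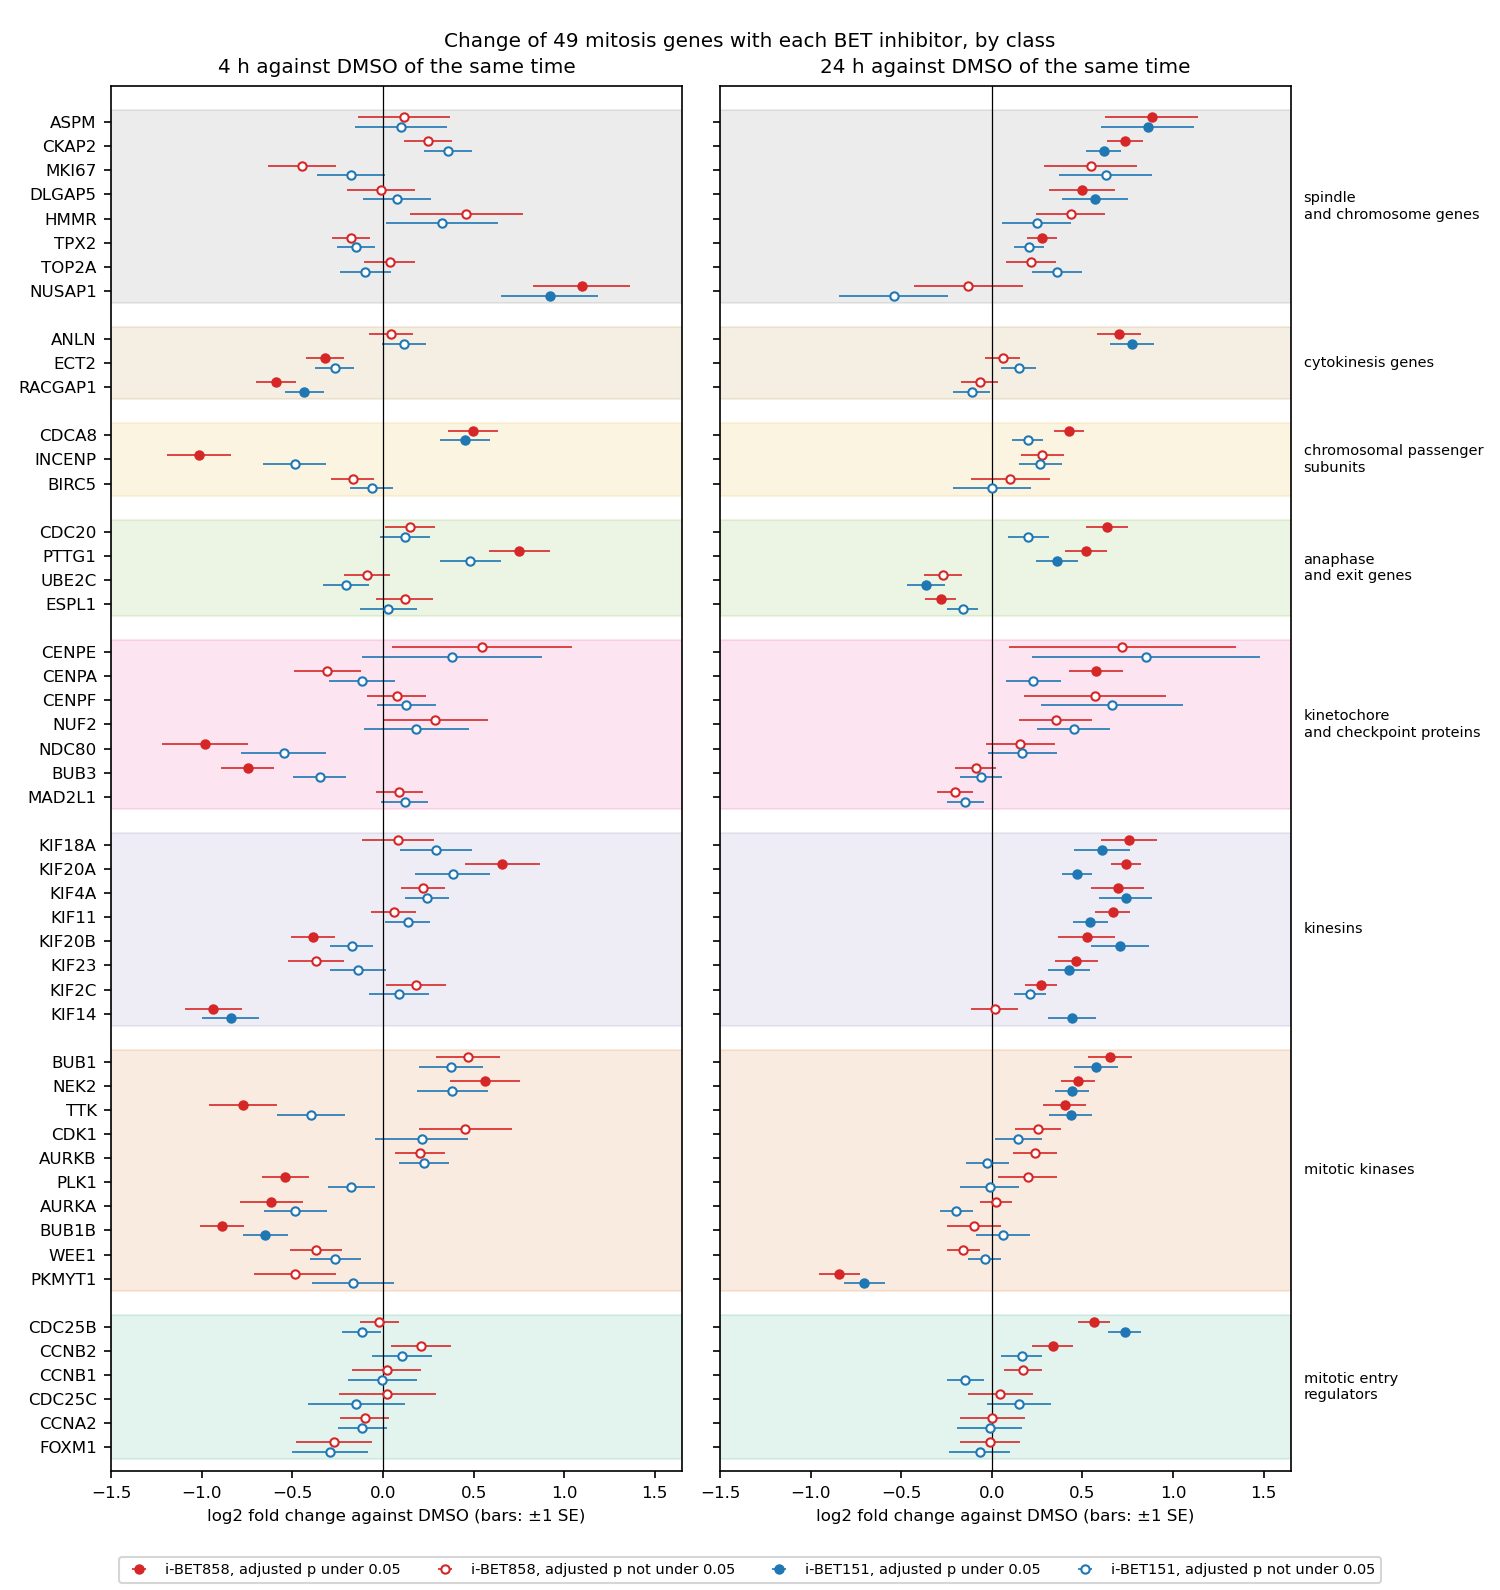
log2 fold change (points) and standard error (bars) of 49 mitosis genes against DMSO of the same time, by class, with i-BET858 in red and i-BET151 in blue, at 4 h on the left and 24 h on the right; filled points have an adjusted p under 0.05. At 4 h points lie on both sides of 0, from -1.02 for INCENP to 1.10 for NUSAP1 with i-BET858, and at 24 h 21 filled red points lie to the right of 0 and 2 to the left.

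Among the 6 regulators of mitotic entry, none was called at 4 h without the replicate block. At 24 h CDC25B was called higher with both inhibitors and CCNB2 with i-BET858 (all genes 20.5% with i-BET858 and 17.2% with i-BET151). With the block FOXM1 was also called lower at 4 h with both inhibitors, and CCNB2 higher with i-BET858 (adjusted p = 0.0498). CDC25B (chr20:3786772-3806121, plus strand), a phosphatase that removes the inhibitory phosphates from CDK1, was at 182, 170.4 and 159 CPM in DMSO at 24 h. i-BET858 gave 268, 248 and 259.6 CPM and i-BET151 gave 302, 273 and 287 CPM. Every treated library was above every DMSO library. It rose 1.48-fold with i-BET858 (log2 fold change 0.56 ± 0.089 (SE), adjusted p = 0.000524) and 1.66-fold with i-BET151 (0.73 ± 0.089, adjusted p = 0.000151). At 4 h it was at 154, 147 and 139 CPM in DMSO and 151, 151 and 131 CPM with i-BET858, and the groups overlapped (log2 fold change -0.021). CCNB2, cyclin B2, rose at 24 h with i-BET858 from 133, 143 and 142 CPM to 169.8, 202 and 171 CPM (log2 fold change 0.34 ± 0.11 (SE), adjusted p = 0.0353), a call lost without any 1 of the first 2 replicates of either group (adjusted p up to 0.147). CCNB1, the main cyclin of mitotic entry and the most abundant of this class, was not called, although from replicates 1 and 2 alone it was called higher at 24 h with i-BET858 (adjusted p = 0.00316). It was at 272, 234 and 175 CPM in DMSO and 268, 249.8 and 173 CPM with i-BET858 at 4 h. At 24 h it was at 259, 272 and 303 CPM and 314, 345 and 307 CPM in the same order (log2 fold change 0.17 with i-BET858 and -0.15 with i-BET151). Values for CCNA2 and CDC25C stayed between -0.15 and 0.15 in the 4 comparisons with DMSO, none called. FOXM1, the transcription factor of this programme, was at 85.4, 72.9 and 88.9 CPM in DMSO at 4 h. Levels were 63.3, 55.7 and 85.5 CPM with i-BET858 and 62.9, 51.0 and 88.0 CPM with i-BET151 (log2 fold changes -0.27 and -0.29), called lower with the replicate block (adjusted p = 0.0364 and 0.0292) and from replicates 1 and 2 alone. Its exons share 782 bases with ITFG2 on the other strand, and the strand setting of the counting is not given in the sources used here.

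Of the 10 mitotic kinases, with i-BET858 at 4 h 4 fell (BUB1B, TTK, AURKA and PLK1) and 1 rose (NEK2), against 16.3% and 14.5% of all genes. BUB1B (chr15:40161023-40221123, plus strand), the checkpoint protein BubR1, was at 103, 109 and 85.3 CPM in DMSO at 4 h. Treatment gave 55.4, 53.1 and 51.7 CPM with i-BET858 and 62.6, 60.4 and 67.1 CPM with i-BET151. All treated libraries were below all DMSO libraries, and it fell 1.85-fold with i-BET858 (log2 fold change -0.89 ± 0.12 (SE), adjusted p = 0.000266) and 1.57-fold with i-BET151 (-0.65 ± 0.12, adjusted p = 0.00446). TTK (chr6:80003887-80042527, plus strand), which encodes the checkpoint kinase MPS1, was at 54.8, 50.1 and 43.6 CPM in DMSO and 29.5, 29.9 and 27.4 CPM with i-BET858 (log2 fold change -0.77 ± 0.19 (SE), adjusted p = 0.00842). With i-BET151 it was at 40.7, 45.8 and 26.6 CPM and overlapped DMSO (-0.40 ± 0.19, adjusted p = 0.179, and 0.0207 with the block). AURKA, the kinase of the spindle poles, was at 169.6, 141 and 116 CPM in DMSO. i-BET858 gave 94.4, 109 and 74.2 CPM (-0.62 ± 0.17, adjusted p = 0.0189) and i-BET151 gave 103, 113 and 90.2 CPM (-0.48 ± 0.17, adjusted p = 0.0853, and 0.00225 with the block). The call with i-BET858 was lost without DMSO replicate 1 or without i-BET858 replicate 1 or 3 (adjusted p up to 0.0916). PLK1 (chr16:23677656-23690367, plus strand), which acts at centrosomes, kinetochores and the midzone, was at 76.9, 59.8 and 64.5 CPM in DMSO and 49.5, 45.5 and 43.1 CPM with i-BET858 (-0.54 ± 0.13, adjusted p = 0.00846), while its i-BET151 libraries, at 55.7, 59.6 and 63.1 CPM, overlapped DMSO. Of the exon bases of PLK1, 611 of 4760 lie opposite other genes.

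NEK2, a centrosome kinase, and the checkpoint kinase BUB1 were on the high side at both times. NEK2 was at 49.4, 48.1 and 38.7 CPM in DMSO and 73.0, 82.0 and 45.8 CPM with i-BET858 at 4 h (0.56 ± 0.19, adjusted p = 0.0471), a call that 7 of the 9 libraries of that fit could each end when left out (adjusted p up to 0.197). At 24 h NEK2 was at 50.7, 46.6 and 42.8 CPM in DMSO. Levels were 67.0, 66.6 and 66.4 CPM with i-BET858 (0.48 ± 0.094, adjusted p = 0.00205) and 66.1, 67.5 and 59.8 CPM with i-BET151 (0.44 ± 0.094, adjusted p = 0.00419). BUB1 (chr2:110637528-110678063, minus strand) was at 99.5, 97.4 and 92.0 CPM in DMSO at 24 h. Treatment gave 162, 159.5 and 144 CPM with i-BET858 (log2 fold change 0.65 ± 0.12 (SE), adjusted p = 0.00146) and 155, 165 and 118 CPM with i-BET151 (0.58 ± 0.12, adjusted p = 0.00403), with no overlap. At 4 h BUB1 had log2 fold changes of 0.47 and 0.38, not called without the block and called with it (adjusted p = 0.000748 and 0.00591). TTK, low at 4 h, was high at 24 h: 54.8, 53.0 and 42.7 CPM in DMSO. i-BET858 gave 70.0, 70.1 and 64.2 CPM (0.40 ± 0.12, adjusted p = 0.0188) and i-BET151 gave 71.4, 75.3 and 59.8 CPM (0.43 ± 0.12, adjusted p = 0.0162). Each of these 2 TTK calls was lost without replicate 1 or replicate 2 of its treated group (adjusted p up to 0.0642 and 0.0776). PKMYT1 (chr16:2968024-2980479, minus strand), which phosphorylates and restrains CDK1, went the other way at 24 h, at 26.4, 27.8 and 27.8 CPM in DMSO. Levels were 14.4, 16.3 and 16.4 CPM with i-BET858 and 17.7, 16.4 and 17.1 CPM with i-BET151. It fell 1.79-fold with i-BET858 (-0.84 ± 0.11, adjusted p = 0.000184) and 1.63-fold with i-BET151 (-0.70 ± 0.11, adjusted p = 0.000860), and no library overlapped DMSO. Its exons share 1585 of 4974 bases with genes on the other strand. WEE1, the nuclear kinase with the same target, was at 106, 108 and 107 CPM in DMSO and 104, 96.0 and 95.6 CPM with i-BET858 at 24 h, not called (-0.16 ± 0.090, adjusted p = 0.190). CDK1 itself, the most abundant kinase here, was at 207, 211 and 148 CPM in DMSO and 271, 336 and 166 CPM with i-BET858 at 4 h (0.45 ± 0.26, adjusted p = 0.215, and 0.00154 with the block), and at 209, 216 and 218 CPM and 265, 280.3 and 243 CPM at 24 h (0.26 ± 0.13, adjusted p = 0.137). AURKB, the kinase of the passenger complex, gave log2 fold changes between -0.025 and 0.24, none called, although it was called higher at 24 h with i-BET858 from replicates 1 and 2 alone (adjusted p = 0.0167).

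**Figure D2:**
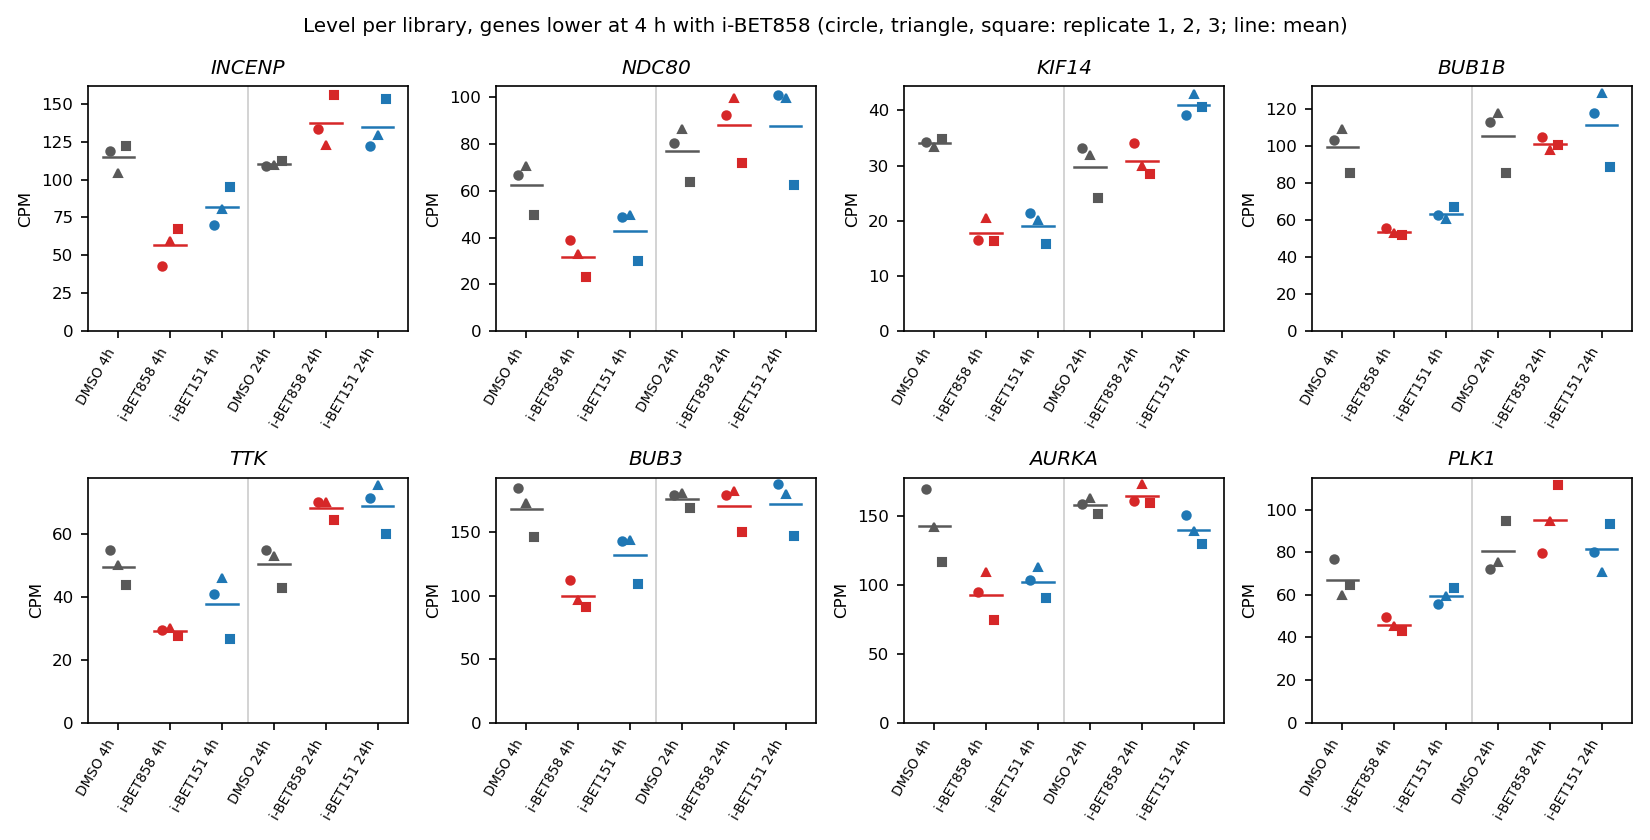
Level in CPM (vertical axis, from 0) of 8 genes that were lower at 4 h with i-BET858, in the 6 groups (horizontal axis); symbols are replicates 1, 2 and 3 and lines are group means. With i-BET858 at 4 h BUB1B was at 51.7 to 55.4 CPM against 85.3 to 109 CPM in DMSO, and at 24 h its i-BET858 and DMSO libraries overlapped.

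The 8 kinesins, motor proteins that slide, depolymerise or carry along microtubules, rose at 24 h in 7 members with each inhibitor, and none was called lower. As a class they had medians of 0.59 (i-BET858) and 0.51 (i-BET151) on the log2 fold scale, beside -0.012 and 0.0046 over all genes tested. KIF11 (chr10:92574105-92655395, plus strand), the Eg5 motor that pushes spindle poles apart, was at 147, 149.6 and 137 CPM in DMSO at 24 h. Treatment gave 226, 219 and 261 CPM with i-BET858 and 207, 227 and 207 CPM with i-BET151. It rose 1.59-fold (log2 fold change 0.67 ± 0.10 (SE), adjusted p = 0.000285) and 1.46-fold (0.54 ± 0.10, adjusted p = 0.00153), with every treated library above DMSO. KIF23 (chr15:69414246-69448427, plus strand), the centralspindlin motor, was at 133, 142 and 109.5 CPM in DMSO. i-BET858 gave 189, 195 and 159.9 CPM (0.47 ± 0.12, adjusted p = 0.00862) and i-BET151 gave 182, 181 and 159 CPM (0.43 ± 0.12, adjusted p = 0.0174). KIF20A, which works in the central spindle, was at 104, 104 and 95.3 CPM in DMSO. Levels were 173, 177 and 171 CPM with i-BET858 (0.74 ± 0.082, adjusted p = 4.83e-05) and 142, 143 and 141 CPM with i-BET151 (0.47 ± 0.082, adjusted p = 0.00137). It was the kinesin with the lowest adjusted p at 24 h with i-BET858. KIF18A, which dampens chromosome oscillations, had log2 fold changes of 0.76 and 0.61, KIF4A, a chromosome-bound motor, 0.69 and 0.74, and KIF20B 0.52 and 0.71, all called with both inhibitors. Leaving out i-BET151 replicate 1 or 2 ended the call of KIF23 (adjusted p up to 0.0664) and replicate 2 that of KIF18A (adjusted p = 0.0563) with that inhibitor, and leaving out i-BET858 replicate 1 or 2 ended that of KIF20B with i-BET858 (adjusted p up to 0.0875). KIF2C, the depolymerase MCAK, had the smallest called rise (0.27 ± 0.088, adjusted p = 0.0296 with i-BET858) and was not called with i-BET151 (0.21, adjusted p = 0.0880, and 0.0483 with the block). Its call was lost without replicate 1 or 2 of DMSO or i-BET858 (adjusted p up to 0.110).

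At 4 h the kinesins did not move as 1 class. Of the 8, 2 fell and 1 rose with i-BET858 (all genes 16.3% and 14.5%), and 1 fell with i-BET151 (all genes 8.43%). So few calls are near those shares. KIF14 (chr1:200551497-200620751, minus strand), which takes citron kinase to the midbody, was at 34.2, 33.4 and 34.8 CPM in DMSO. Treatment gave 16.5, 20.5 and 16.4 CPM with i-BET858 and 21.4, 20.2 and 15.8 CPM with i-BET151. It fell 1.92-fold (log2 fold change -0.94 ± 0.16 (SE), adjusted p = 0.000909) and 1.79-fold (-0.84 ± 0.16, adjusted p = 0.00401), and the treated and DMSO libraries did not overlap. At 24 h KIF14 was at 33.2, 32.0 and 24.0 CPM in DMSO and 34.1, 29.9 and 28.5 CPM with i-BET858 (0.015 ± 0.13, adjusted p = 0.941), whereas the i-BET151 libraries were at 39.1, 43.1 and 40.7 CPM, above DMSO (0.44 ± 0.13, adjusted p = 0.0233). That call with i-BET151 was lost without any 1 of its 3 libraries (adjusted p up to 0.0908). KIF20B was lower at 4 h with i-BET858 (50.6, 55.8 and 45.5 CPM against 62.6, 66.2 and 70.3 CPM, -0.39 ± 0.12, adjusted p = 0.0285), with a call that 5 of 9 libraries could end (adjusted p up to 0.0990). KIF20A was higher (146, 157 and 100.4 CPM against 106, 84.6 and 65.6 CPM, 0.66 ± 0.21, adjusted p = 0.0323), with a call that 4 of 9 libraries could end (adjusted p up to 0.129). KIF23 was at 101, 118 and 82.6 CPM with i-BET858 at 4 h against 139, 134 and 118 CPM in DMSO, called lower with the block (adjusted p = 0.0918 without it and 0.00247 with it).

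**Figure D3:**
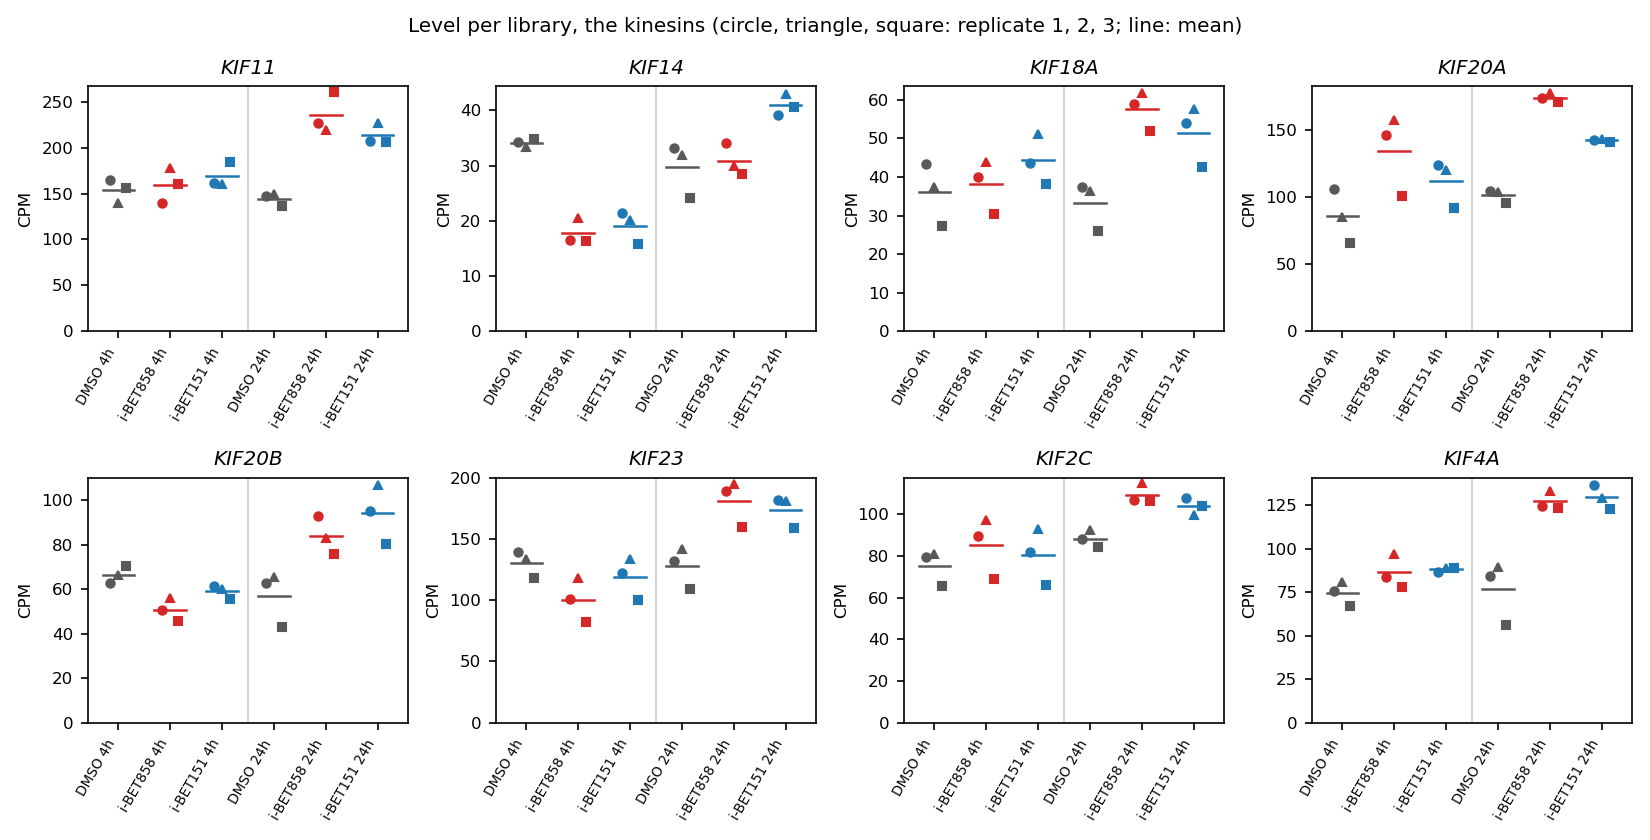
Level in CPM (vertical axis, from 0) of the 8 kinesins in the 6 groups (horizontal axis); symbols are replicates 1, 2 and 3 and lines are group means. KIF11 was at 219 to 261 CPM with i-BET858 at 24 h and at 137 to 150 CPM in DMSO. KIF14 had the lowest level of the class averaged over all libraries (28.8 CPM), and at 4 h it was lower with both inhibitors than in DMSO.

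Of the 7 kinetochore and checkpoint proteins, 2 fell at 4 h with i-BET858, BUB3 and NDC80 (all genes 16.3%). With the same inhibitor 1 rose at 24 h, CENPA (all genes 20.5%). Such small counts do not set the class apart from other genes. None of the 7 was called with i-BET151 without the block. The difference between the inhibitors was called for none of them without the block, and with it for BUB3 and NDC80 at 4 h. NDC80 (chr18:2571557-2616635, plus strand), the microtubule-binding arm of the kinetochore, was at 66.7, 70.8 and 49.8 CPM in DMSO at 4 h and 38.8, 32.9 and 23.0 CPM with i-BET858, a 1.98-fold fall (log2 fold change -0.98 ± 0.24 (SE), adjusted p = 0.00827) with no overlap. With i-BET151 it was at 48.97, 49.6 and 30.1 CPM (-0.55 ± 0.23, adjusted p = 0.145, and 0.000825 with the block). Its partner in the same complex, NUF2, was at 33.6, 39.1 and 21.5 CPM in DMSO and 45.8, 40.1 and 29.0 CPM with i-BET858 (0.29 ± 0.29, adjusted p = 0.498, and 0.0494 with the block), so the 2 subunits had estimates of opposite sign. BUB3 (chr10:123154402-123170467, plus strand), which brings BUB1 and BUB1B to kinetochores, was at 184, 173 and 146 CPM in DMSO at 4 h. i-BET858 gave 113, 96.4 and 90.7 CPM (-0.75 ± 0.15, adjusted p = 0.00251) and i-BET151 gave 143, 144 and 109 CPM (-0.35 ± 0.15, adjusted p = 0.134, and 0.00492 with the block). Its DMSO and i-BET858 libraries did not overlap at 4 h and overlapped at 24 h. CENPA, the histone variant of the centromere, rose at 24 h from 26.5, 28.0 and 32.9 CPM in DMSO to 38.1, 41.1 and 54.8 CPM with i-BET858 (0.57 ± 0.15, adjusted p = 0.0106), and was at 37.2, 33.9 and 33.2 CPM with i-BET151 (0.23 ± 0.15, adjusted p = 0.278). MAD2L1, the checkpoint protein that binds CDC20, stayed between 109 and 160 CPM in all 18 libraries and was called in no comparison with DMSO.

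CENPE, a kinetochore motor, and CENPF, a large kinetochore protein, varied widely between libraries of 1 group at 24 h, and whether they were called depended on how replicate 3 and the pairing were treated. CENPF had the highest mean level of the class in CPM, though not per kilobase of exon (13.8 CPM per kb in DMSO against 25.0 for MAD2L1). It was at 229, 237 and 58.4 CPM in the 3 DMSO libraries at 24 h, 299, 291 and 204 CPM with i-BET858 (0.57 ± 0.39, adjusted p = 0.276) and 298, 307 and 234 CPM with i-BET151. CENPE was at 64.4, 62.1 and 6.98 CPM in DMSO and 91.5, 94.2 and 39.0 CPM with i-BET858 (0.72 ± 0.63, adjusted p = 0.392). Replicate 3 was the lowest library of each of these groups, and furthest below the others in DMSO. Without DMSO replicate 3, with the low treated replicate 3 kept, the log2 fold change with i-BET858 was 0.18 for CENPF (adjusted p = 0.440) and 0.23 for CENPE (adjusted p = 0.674). From replicates 1 and 2 alone both were called higher (0.31, adjusted p = 0.000977, and 0.52, adjusted p = 4.90e-05), and with the block too (adjusted p = 0.0259 and 0.0147). Among the 5 members with at least 9 kb of exon (CENPE, CENPF, ASPM, MKI67 and WEE1) the median log2 deviation of DMSO replicate 3 from the mean of the other 2, centred over all genes, was -1.25, against -0.070 for the other 44 members. In replicate 3 at 24 h with i-BET858 the same 2 medians were -0.49 and -0.038, and with i-BET151 -0.34 and -0.12, so the long members were low there too, by less. Over all 2690 genes of that length with a mean of more than 50 counts the deviation of the DMSO library was -0.10, and for WEE1 0.019. Over 1519 genes with short exons (2 kb as the limit) its median was 0.19. Across 13173 genes the deviation correlated with exon length at -0.20 in that library, within a range of -0.28 to 0.29 over the 18 libraries. The part of RNA quality in these values was not tested.

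**Figure D4:**
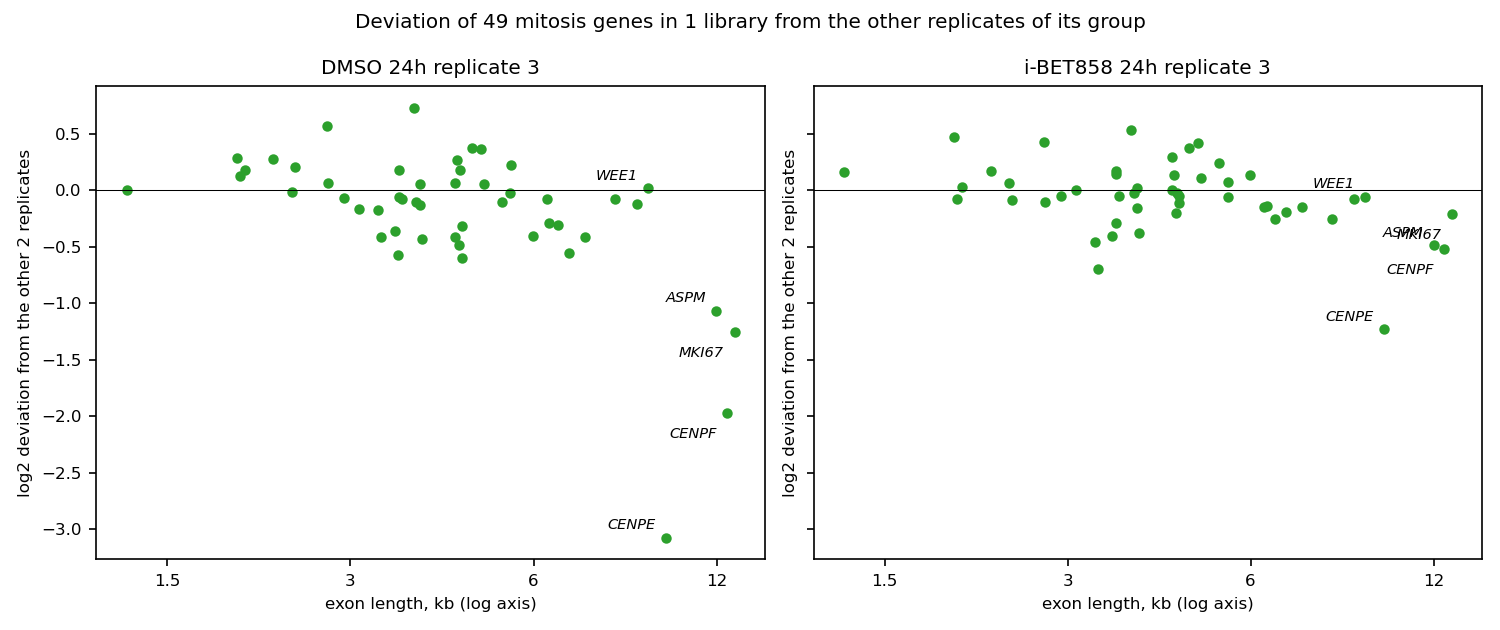
log2 deviation of each of 49 mitosis genes in 1 library from the mean of the other 2 replicates of its group (vertical axis), against exon length in kb (horizontal log axis), for DMSO 24 h replicate 3 and i-BET858 24 h replicate 3. In the DMSO library CENPE, CENPF, MKI67 and ASPM lie below the other members, with CENPE lowest.

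Of the 4 genes of anaphase and exit, CDC20 and PTTG1 rose and ESPL1 fell at 24 h with i-BET858, while PTTG1 rose and UBE2C fell with i-BET151. Over all genes 20.5% rose and 21.3% fell with i-BET858, and 17.2% rose and 16.6% fell with i-BET151. CDC20 (chr1:43358981-43363203, plus strand), the activator of the APC/C, was at 182, 195 and 210.4 CPM in DMSO at 24 h and 281, 342 and 314 CPM with i-BET858, a 1.55-fold rise (log2 fold change 0.63 ± 0.12 (SE), adjusted p = 0.00125) with no overlap. With i-BET151 it was at 243, 205 and 238 CPM, which overlapped DMSO (0.20 ± 0.11, adjusted p = 0.208). PTTG1 (chr5:160421855-160428739, plus strand), securin, which holds separase inactive, was high at both times. At 4 h it was at 119, 109 and 94.95 CPM in DMSO. Levels were 211, 194 and 138 CPM with i-BET858 (0.75 ± 0.17, adjusted p = 0.00538) and 154, 169 and 130.1 CPM with i-BET151 (0.48 ± 0.17, adjusted p = 0.0750, and 0.000908 with the block). At 24 h securin was at 127, 131 and 139 CPM, 181, 218 and 186 CPM (0.52 ± 0.12, adjusted p = 0.00449) and 187, 183 and 149 CPM (0.36 ± 0.12, adjusted p = 0.0345) in the same order. At both times every treated library was above every DMSO library, and the 24 h call with i-BET151 was lost without any 1 of the first 2 replicates of DMSO or i-BET151 (adjusted p up to 0.119). ESPL1, separase itself, fell at 24 h with i-BET858 from 99.5, 94.6 and 87.8 CPM to 80.5, 81.5 and 76.1 CPM (-0.28 ± 0.086, adjusted p = 0.0216), and was at 85.0, 85.8 and 85.1 CPM with i-BET151 (-0.16 ± 0.086, adjusted p = 0.179). Its call was lost without DMSO replicate 1 or 2 or i-BET858 replicate 1 or 3 (adjusted p up to 0.0958). UBE2C, the E2 enzyme of the APC/C, was at 127, 139 and 131 CPM in DMSO. Treatment gave 98.0, 120.1 and 120.1 CPM with i-BET858 (-0.27 ± 0.11, adjusted p = 0.0624, and 0.0212 with the block) and 107, 99.2 and 108 CPM with i-BET151 (-0.36 ± 0.11, adjusted p = 0.0224). The i-BET151 call of UBE2C was lost without DMSO replicate 2 or i-BET151 replicate 1 or 2 (adjusted p up to 0.0888).

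Of the 3 non-kinase subunits of the chromosomal passenger complex, which guides Aurora B, INCENP fell and CDCA8 rose at 4 h with i-BET858 (all genes 16.3% and 14.5%), CDCA8 rose with i-BET151 (all genes 7.81%), and BIRC5 was called with neither. INCENP (chr11:62123998-62153169, plus strand), its scaffold, was at 119, 104 and 122 CPM in DMSO at 4 h. i-BET858 gave 42.8, 59.7 and 67.6 CPM and i-BET151 gave 70.3, 80.7 and 95.3 CPM. It fell 2.02-fold with i-BET858 (log2 fold change -1.02 ± 0.18 (SE), adjusted p = 0.00115), the largest fall among the 49 genes, and was not called with i-BET151 (-0.49 ± 0.18, adjusted p = 0.0845, and 0.00427 with the block), although none of its 3 libraries reached DMSO. CDCA8, borealin, was higher, at 67.4, 61.2 and 53.9 CPM in DMSO. Levels were 78.0, 98.4 and 80.1 CPM with i-BET858 (0.49 ± 0.14, adjusted p = 0.0177) and 78.6, 91.8 and 79.9 CPM with i-BET151 (0.45 ± 0.14, adjusted p = 0.0451), with no overlap. The first of these calls was lost without DMSO replicate 2 or 3 or i-BET858 replicate 2 (adjusted p up to 0.0792), and 7 of 9 libraries could end the second (adjusted p up to 0.175). BIRC5, survivin, the most abundant of the 3, was at 245, 201 and 207 CPM in DMSO and 210.0, 177 and 192 CPM with i-BET858 (-0.17 ± 0.12, adjusted p = 0.320), and its 24 h values, 229, 237 and 383 CPM and 259.9, 287 and 393 CPM, overlapped too. At 24 h CDCA8 was still high with i-BET858 (86.4, 93.0 and 93.2 CPM against 66.2, 66.6 and 64.7 CPM, 0.43 ± 0.084, adjusted p = 0.00199). INCENP was at 133, 123 and 156 CPM against 109, 109.6 and 112 CPM, above DMSO in all 3 libraries and called with the block (adjusted p = 0.0886 without it and 0.0145 with it).

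Of the 3 cytokinesis genes that could be tested, RACGAP1 and ECT2 fell at 4 h with i-BET858 (all genes 16.3%). ANLN rose at 24 h with both inhibitors (all genes 20.5% with i-BET858 and 17.2% with i-BET151). RACGAP1 (chr12:49976923-50033136, minus strand), the partner of KIF23 in centralspindlin, was at 146, 129.9 and 123 CPM in DMSO at 4 h. Treatment gave 88.6, 91.3 and 84.1 CPM with i-BET858 (log2 fold change -0.59 ± 0.11 (SE), adjusted p = 0.00162) and 99.2, 101 and 95.5 CPM with i-BET151 (-0.43 ± 0.11, adjusted p = 0.0183). The treated libraries were all below DMSO, and the i-BET151 call was lost without replicate 1 or 2 of either group (adjusted p up to 0.0846). ECT2 (chr3:172750682-172821474, plus strand), the RhoA exchange factor that RACGAP1 brings to the midzone, was at 183, 172 and 157 CPM in DMSO. i-BET858 gave 136, 139.8 and 133 CPM (-0.32 ± 0.11, adjusted p = 0.0375) and i-BET151 gave 146, 133 and 147 CPM (-0.27 ± 0.11, adjusted p = 0.113, and 0.0257 with the block). With i-BET858, 7 of the 9 libraries could end the call of ECT2 (adjusted p up to 0.125). ANLN (chr7:36389821-36453791, plus strand), anillin, the scaffold of the contractile ring, was at 138, 136 and 121 CPM in DMSO and 127, 155 and 125 CPM with i-BET858 at 4 h, overlapping. At 24 h it was at 136, 144 and 104 CPM in DMSO, 217, 198 and 226 CPM with i-BET858 (0.70 ± 0.12, adjusted p = 0.000881) and 209.5, 238 and 216 CPM with i-BET151 (0.77 ± 0.12, adjusted p = 0.000724). None of the 6 treated libraries at 24 h reached down to DMSO.

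Among the 8 spindle and chromosome genes, 4 rose at 24 h with i-BET858 (ASPM, CKAP2, DLGAP5 and TPX2) and 3 with i-BET151, and none fell. Over all genes 20.5% rose and 21.3% fell with i-BET858, and 17.2% rose and 16.6% fell with i-BET151. TPX2 (chr20:31739271-31801805, plus strand), which activates Aurora A on the spindle and was the most abundant of the class, was at 299.8, 322 and 295 CPM in DMSO at 24 h. Levels were 368, 371 and 405 CPM with i-BET858 (log2 fold change 0.28 ± 0.083 (SE), adjusted p = 0.0198) and 354, 361 and 359 CPM with i-BET151 (0.21 ± 0.083, adjusted p = 0.0799, and 0.0311 with the block). Without DMSO replicate 1 its i-BET858 call was lost (adjusted p = 0.0715). CKAP2, a spindle microtubule protein, was at 76.8, 75.5 and 85.0 CPM in DMSO. Treatment gave 129.8, 143 and 133 CPM with i-BET858 (0.73 ± 0.10, adjusted p = 0.000162) and 126, 129.5 and 115 CPM with i-BET151 (0.62 ± 0.10, adjusted p = 0.000741). ASPM, a spindle pole protein, was at 97.3, 96.7 and 45.5 CPM in DMSO. i-BET858 gave 174, 159.7 and 118 CPM (0.88 ± 0.26, adjusted p = 0.0178) and i-BET151 gave 150.1, 169.6 and 121 CPM (0.86 ± 0.26, adjusted p = 0.0248). This was the largest called rise at 24 h with each inhibitor, and it was 0.63 and 0.60 without the low DMSO replicate 3 (adjusted p = 0.0173 and 0.0267). Without replicate 1 or 2 of the treated group the ASPM call was lost with either inhibitor (adjusted p up to 0.0690 and 0.0940). DLGAP5, a spindle assembly protein, was at 216, 219 and 144 CPM in DMSO. Levels were 291, 305 and 242 CPM with i-BET858 (0.50 ± 0.18, adjusted p = 0.0473) and 317, 329.9 and 223 CPM with i-BET151 (0.57 ± 0.18, adjusted p = 0.0334), and 7 and 4 of the 9 libraries could end these calls (adjusted p up to 0.147 and 0.129). MKI67 (chr10:128096659-128126423, minus strand), the Ki-67 antigen that coats mitotic chromosomes, was at 281, 268 and 113 CPM in DMSO. Treatment gave 347, 344 and 297 CPM with i-BET858 (0.54 ± 0.26, adjusted p = 0.113) and 347, 359 and 329 CPM with i-BET151 (0.63 ± 0.26, adjusted p = 0.0828), every treated library above DMSO. With the block MKI67 was called higher with both inhibitors (adjusted p = 0.0133 and 0.00724), as it was from replicates 1 and 2 alone. Without the same library the values for MKI67 were 0.26 (adjusted p = 0.0527) and 0.33 (adjusted p = 0.0226). TOP2A, topoisomerase II alpha, was at 247, 236 and 195 CPM in DMSO and 305, 255 and 251 CPM with i-BET858 (0.22 ± 0.14, adjusted p = 0.238). At 4 h the single called member was NUSAP1, at 2.18, 3.22 and 1.94 CPM in DMSO. i-BET858 gave 6.09, 4.66 and 4.97 CPM (1.10 ± 0.27, adjusted p = 0.00877) and i-BET151 gave 4.03, 5.42 and 4.52 CPM (0.92 ± 0.27, adjusted p = 0.0369). The overlap of its exons with other genes makes this value uncertain. Its i-BET151 call was lost without any of 5 libraries (adjusted p up to 0.141).

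The design has its own test of the change between times, the difference of the inhibitor's effect at 24 h and at 4 h in 1 fit over all 18 libraries. For i-BET858 the effect was higher at 24 h in 20 of the 49 mitosis genes and lower in 1, NUSAP1, against 14.6% and 12.6% of all 18154 genes tested. For i-BET151 it was higher in 8 and lower in 1, again NUSAP1, against 6.99% and 6.82%, and with the replicate block in 16 and 1, against 13.2% and 12.0%. The median over the 49 genes was 0.42 for i-BET858 and 0.30 for i-BET151, beside 0.0031 and 0.0070 over all genes. INCENP had the largest positive change for i-BET858, 1.34 ± 0.22 (adjusted p = 0.000192), followed by TTK (1.22 ± 0.23, adjusted p = 0.000737) and NDC80 (1.18 ± 0.33, adjusted p = 0.0116), and KIF14 had the largest for i-BET151 (1.30 ± 0.21, adjusted p = 0.000575). Of the 11 genes lower at 4 h with i-BET858, 9 were not called at 24 h and 2, TTK and KIF20B, were called higher. Of the 5 genes higher at 4 h, 4 were also higher at 24 h (NEK2, KIF20A, PTTG1 and CDCA8), and NUSAP1 was not called. The other 15 genes higher at 24 h had not been called at 4 h. By class, the change between times was called higher for 3 of 3 tested cytokinesis genes, 4 of 8 kinesins, 3 of 7 kinetochore and checkpoint proteins, 4 of 10 kinases and 3 of 8 spindle and chromosome genes with i-BET858, and for 1 gene each of entry, exit and the passenger complex.

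**Figure D5:**
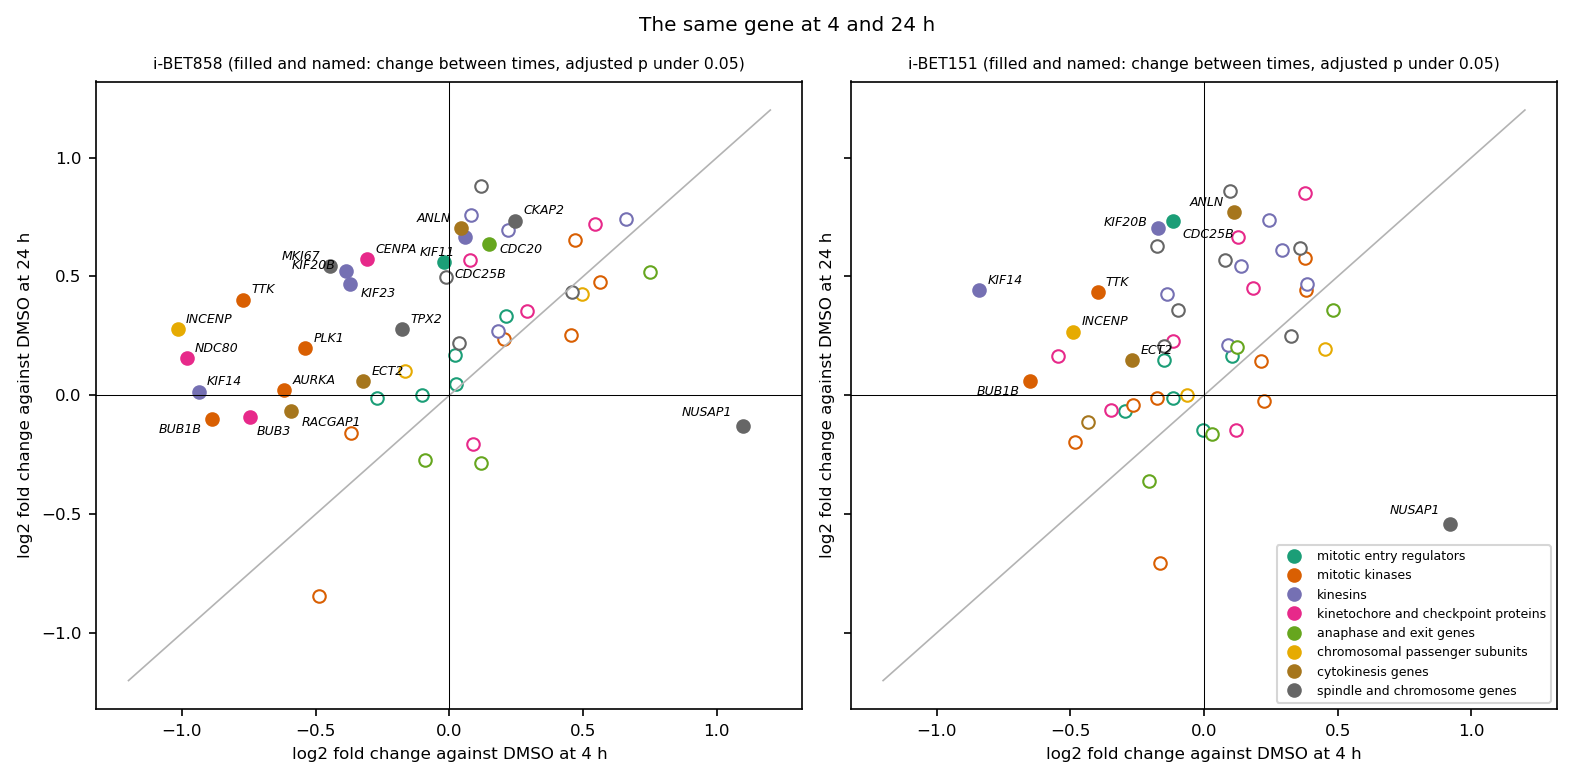
log2 fold change against DMSO at 24 h (vertical axis) against that at 4 h (horizontal axis) for 49 mitosis genes with i-BET858 (left) and i-BET151 (right), coloured by class; the line marks equal change, and filled, named points have a change between the times with an adjusted p under 0.05. Of the 21 filled points for i-BET858, 20 lie above the line and NUSAP1 below it.

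Calls against DMSO of the same time made with the replicate block that are not given above were as follows, with the adjusted p of the blocked fit. For i-BET858 at 4 h they were higher, HMMR (0.00535) and, lower, WEE1 (0.00576), PKMYT1 (0.00440) and MKI67 (0.00557). For i-BET151 at 4 h they were higher, NEK2 (0.0213), KIF20A (0.00541), HMMR (0.0274) and CKAP2 (0.0112). For i-BET858 at 24 h they were higher, NUF2 (0.0126) and HMMR (0.00147). For i-BET151 at 24 h they were higher, CENPE (0.00737), CENPF (0.0144), NUF2 (0.00238), INCENP (0.0213) and TOP2A (0.00769). The block ended no call of a member in these comparisons. HMMR is a spindle assembly factor and TOP2A untangles sister chromatids. From replicates 1 and 2 alone, i-BET858 at 4 h also raised CDK1, BUB1 and HMMR and lowered FOXM1 and PKMYT1, and the call of KIF20B was lost. In the same 2 replicates, i-BET151 at 4 h also raised PTTG1 and lowered FOXM1, AURKA, NDC80, INCENP and ECT2, and the call of CDCA8 and NUSAP1 was lost. In the same 2 replicates, i-BET858 at 24 h also raised CCNB1, CDK1, AURKB, CENPE, CENPF, NUF2, BIRC5, INCENP, HMMR and MKI67 and lowered BUB1B and UBE2C. From replicates 1 and 2 alone, i-BET151 at 24 h also raised CCNB2, CDK1, CENPA, CENPE, CENPF, NDC80, NUF2, BIRC5, TPX2, HMMR, TOP2A and MKI67 and lowered AURKA and ESPL1. Between the inhibitors those replicates also called CCNB1 (adjusted p = 0.0177) and KIF20A (adjusted p = 0.0158) higher with i-BET858 at 24 h, beside CDC20 and KIF14 below, and in DMSO they called ESPL1 higher at 24 h than at 4 h (adjusted p = 0.0456).

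Levels in DMSO itself were compared between the times as well. edgeR called none of the 49 genes between 4 and 24 h in DMSO, with 6 at an unadjusted p under 0.05 and none called by DESeq2, where 0.0386% of all 18154 genes were called. The median of the 49 was 0.15 higher at 24 h on the log2 scale, beside -0.0064 over all genes, and 39 of 49 estimates were positive. AURKB had the lowest p of the 6, at 46.2, 43.1 and 46.6 CPM at 4 h and 52.7, 58.5 and 66.6 CPM at 24 h (0.39 ± 0.13, adjusted p = 0.288).

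The inhibitors were then compared with each other at the same dose and time, with p-values adjusted over all genes of each fit. edgeR called none of the 49 mitosis genes between i-BET858 and i-BET151 at 4 h (all genes 0.971%) or at 24 h (all genes 0.21%), with 3 and 7 at an unadjusted p under 0.05 and 0 and 2 called by DESeq2. With the replicate block 4 were lower with i-BET858 at 4 h (all genes 9.63% in either direction), and at 24 h 1 was lower and 1 higher (all genes 4.37%), shares of the 49 near those of all genes. At 4 h the difference for INCENP was -0.53 (95% confidence interval -0.91 to -0.14, adjusted p = 0.218, and 0.0114 with the block), for BUB3 -0.40 (-0.72 to -0.076, adjusted p = 0.276, and 0.00959 with the block) and for PLK1 -0.36 (-0.65 to -0.079, adjusted p = 0.257, and 0.0486 with the block). The fourth gene called with the block was NDC80, with a difference of -0.44 (-0.95 to 0.081, adjusted p = 0.531, and 0.0199 with the block). At 24 h CDC20 was higher with i-BET858 than with i-BET151 by 0.43 (0.18 to 0.69, adjusted p = 0.170, and 0.0288 with the block), and for KIF14 the difference was -0.43 (-0.71 to -0.14, adjusted p = 0.226, and 0.0455 with the block). A p that misses the threshold does not show that the inhibitors act alike on these genes. Against DMSO, which both comparisons share, the 11 genes lower at 4 h with i-BET858 had a median log2 fold change of -0.75 (i-BET858) and -0.43 (i-BET151). The 21 genes higher at 24 h had medians of 0.56 and 0.47, a description only since i-BET858 chose the genes.

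Promoters of the kind printed above were found in each direction of change. Of the 11 genes lower at 4 h with i-BET858, 7 had a promoter to search, of which 4 held the CHR core and 5 CCAAT. Among the 5 genes higher at 4 h, 1 held the CHR core and all 5 held CCAAT at least 2 times. CCAAT was present at least 2 times in 3 of the 7 searched promoters of lower genes. Of 27 searched promoters of genes not called at 4 h, 15 held the CHR core and 20 held CCAAT, 11 of them at least 2 times. At 24 h, 11 of 19 searched promoters of higher genes held the CHR core and 15 held CCAAT, against 8 and 14 of 19 among genes not called. No test was made of these counts.

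Other gene lists of cell division, chosen by name, were counted in the same way, to be read against the all-gene shares given above (16.3% lower and 14.5% higher at 4 h, 21.3% and 20.5% at 24 h with i-BET858). For i-BET151 these shares were 8.43% lower and 7.81% higher at 4 h, and 16.6% and 17.2% at 24 h. The 20 S-phase genes went the opposite way at 24 h: 11 were lower and none higher with i-BET858 (median -0.40), and 7 lower and none higher with i-BET151 (median -0.23). The largest of these falls was that of MCM5, a subunit of the replicative helicase, from 97.3, 103 and 102 CPM in DMSO to 50.1, 56.6 and 38.8 CPM with i-BET858 (-1.10 ± 0.13, adjusted p = 8.29e-05). Of the 8 condensin subunits, which compact mitotic chromosomes, 4 rose at 24 h with each inhibitor and none was called at 4 h. The 11 cohesin genes, which hold sister chromatids together, fell at 4 h in 8 cases with i-BET858 (median -0.73) and 4 with i-BET151, with none higher, and at 24 h 4 were lower and 2 higher with i-BET858. STAG2, a cohesin subunit, had the largest called fall of all the lists at 24 h, from 209, 202 and 227 CPM in DMSO to 107, 90.7 and 93.7 CPM with i-BET858 (-1.17 ± 0.11, adjusted p = 1.39e-05). The cohesin protector SGO2 rose from 45.2, 40.0 and 25.1 CPM to 74.7, 72.7 and 55.3 CPM (0.84 ± 0.23, adjusted p = 0.0126). Of 27 other kinetochore subunits tested, 5 were lower and 1 higher at 4 h and 6 lower and 5 higher at 24 h with i-BET858, shares near those of all genes apart from the 4 h rises, which were fewer. KNL1, the kinetochore scaffold that binds BUB1 and BUB3, had the largest rise of all the lists, from 57.4, 61.7 and 29.0 CPM in DMSO to 153, 140.5 and 121 CPM with i-BET858 and 135, 155 and 120.3 CPM with i-BET151 (1.45 ± 0.23, adjusted p = 0.000519 and 1.45 ± 0.23, adjusted p = 0.000759). DMSO replicate 3 was again the lowest for KNL1 and SGO2. Among 16 APC/C genes 4 were lower and 2 higher at 4 h and 1 lower and 2 higher at 24 h with i-BET858. Among 11 centrosome duplication genes 3 lower and none higher at 4 h and 2 lower and 3 higher at 24 h. Of 12 DREAM and MMB genes, whose products form complexes that bind the CHR, 5 were lower and 1 higher at 4 h and 4 lower and 1 higher at 24 h with i-BET858. The 1 member higher at both times was LIN54, the subunit that contacts the CHR, at 29.5, 27.2 and 32.6 CPM in DMSO and 38.8, 52.8 and 50.1 CPM with i-BET858 at 4 h (0.67 ± 0.15, adjusted p = 0.00462) and at 23.4, 21.5 and 23.5 CPM and 37.3, 34.2 and 40.7 CPM at 24 h (0.67 ± 0.11, adjusted p = 0.000565).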

How the data were processed

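RNA was measured in 18 libraries (poly-A, paired-end). The authors aligned reads to GRCh38 with STAR and deposited gene counts, 1 table per time; the annotation and strand setting are not given in the sources used here, and both tables share column names, so the time was read from the tables' names. Totals were 27323969 to 46299994 counts, which limits low genes most. Symbols and positions came from GENCODE and promoters from RefSeq. Counts were tested with edgeR 4.0.16 (TMM, filterByExpr, quasi-likelihood test), all 9 libraries of a time in 1 fit, or all 18 for changes between times, with Benjamini-Hochberg adjustment over all genes. A call is an adjusted p under 0.05. DESeq2 1.42.0, other scalings, filters, fits, a replicate block and leaving out libraries were alternatives. Deviations of same-numbered libraries correlated at 0.298 to 0.629 (4 h) and 0.226 to 0.578 (24 h) over 13193 genes, and those of differently numbered libraries at -0.551 to 0.344 and -0.562 to 0.578. Every same-numbered pair was over 0.1, so the numbers were taken to pair the samples; at 24 h they set replicate 3 apart but did not separate replicates 1 and 2. The fits were tested on simulated data, of which no result is given here. Members and lists were chosen with earlier results of these data known. Named in full were the 2 most abundant genes per class and those whose call differed from most of their class, and from other lists the 2 largest called falls and rises at 24 h with i-BET858 and genes called against most of their list.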

Additional observations from a re-analysis of the deposited data

Results flagged for a closer look

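The effect of each inhibitor was compared between 4 and 24 h by an interaction term over all 18 libraries, and the results below are those mitosis genes whose effect differed between the times at an adjusted p under 0.05 by edgeR.

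For i-BET858 the change of the log2 fold change from 4 to 24 h was positive in 20 genes: INCENP 1.34, TTK 1.22, NDC80 1.18, MKI67 1.03, KIF14 0.99, KIF20B 0.95, CENPA 0.93, KIF23 0.88, BUB1B 0.83, PLK1 0.78, ANLN 0.70, BUB3 0.70, AURKA 0.68, KIF11 0.65, CDC25B 0.63, RACGAP1 0.57, CKAP2 0.53, CDC20 0.53, TPX2 0.50 and ECT2 0.42. It was negative in NUSAP1, at -1.18. For MKI67 the log2 fold change at 24 h was 0.54, and 0.26 without the low DMSO 24 h replicate 3. Leaving out that library did not end the call of the change of MKI67 between times.

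For i-BET151 the change was positive in 8 genes: KIF14 1.30, KIF20B 0.90, CDC25B 0.87, TTK 0.85, INCENP 0.77, BUB1B 0.73, ANLN 0.68 and ECT2 0.44. It was negative in NUSAP1, at -1.44. With the replicate block, genes also called higher included NDC80 (0.73, adjusted p = 0.000665), KIF23 (0.59, adjusted p = 0.000683) and KIF4A (0.52, adjusted p = 0.0146). KIF11 (0.43, adjusted p = 0.0294) and TPX2 (0.37, adjusted p = 0.0195) were among them too. From replicates 1 and 2 alone, CENPA (0.57, adjusted p = 0.0180) and RACGAP1 (0.43, adjusted p = 0.0193) were among those also called higher, and PKMYT1 was called lower (-0.59, adjusted p = 0.0317).

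Both lists rest on the same DMSO libraries. Some of these calls could each be ended by leaving out 1 of the 18 libraries. With i-BET858 these were AURKA by 2 (adjusted p up to 0.0613), CDC20 by 6 (adjusted p up to 0.118), CKAP2 by 3 (adjusted p up to 0.0665), ECT2 by 7 (adjusted p up to 0.0817), MKI67 by 5 (adjusted p up to 0.0952) and NUSAP1 by 6 (adjusted p up to 0.102). With i-BET151 these were BUB1B by 5 (adjusted p up to 0.0729), ECT2 by 15 (adjusted p up to 0.145), INCENP by 2 (adjusted p up to 0.0640), NUSAP1 by 6 (adjusted p up to 0.0658) and TTK by 3 (adjusted p up to 0.0613). The numbers count the libraries that end the call. NUSAP1 has few counts. Groups of 3 were not screened for single outlying libraries.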

How the results depend on the processing

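Of 92 called fold changes of mitosis genes, 55 kept their direction and side of the threshold in every alternative, and none of the 92 changed sign; over all alternatives 1691 of 1896 values were the same and 205 were no longer past the threshold. Counts of called genes moved as follows, and the cause was not tested. With the replicate block, i-BET858 at 4 h had 26 called genes in place of 16 (10 in place of 5 higher), i-BET151 at 4 h 18 in place of 5 (10 lower, 8 higher), the change between times with i-BET151 17 in place of 9, and the inhibitors differed in 4 genes at 4 h and 2 at 24 h in place of 0; the block changed no other count by over 1.5 times.

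From replicates 1 and 2 alone, i-BET858 had 8 higher at 4 h and 35 called at 24 h in place of 23 (4 lower), i-BET151 had 9 called at 4 h (8 lower, 1 higher) and 32 at 24 h in place of 18 (4 lower, 28 higher), the inhibitors differed in 4 genes at 24 h, the change with i-BET151 was called in 16 and DMSO between times in 1. Shares of all genes called from these 2 replicates are not given here, so the counts do not set the members apart from other genes. With total counts as library size, i-BET858 had 17 lower and 2 higher at 4 h and 4 lower at 24 h, and i-BET151 had 0 higher at 4 h and 10 higher at 24 h. With no filter on low counts, i-BET858 had 8 higher at 4 h and 1 lower at 24 h, i-BET151 8 called at 4 h (6 lower), and the inhibitors differed in 1 gene at each time. In 1 fit of all 18 libraries, i-BET151 at 4 h had 9 called (5 lower, 4 higher) and i-BET858 at 24 h 1 lower. DESeq2 called 2 genes between the inhibitors at 24 h. At 2-fold or more, 2 genes were called with i-BET858 and 0 with i-BET151 at 4 h, 0 with either at 24 h, and 5 and 2 for the change between times.

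Leaving out 1 library at a time gave 11 to 16 called genes with i-BET858 at 4 h, with 8 to 12 lower and 2 to 7 higher (2 higher without DMSO replicate 2 or 3 or i-BET858 replicate 2, 3 without i-BET858 replicate 1). With i-BET151 at 4 h 2 to 6 were called, 2 to 4 lower and 0 to 3 higher (2 called without DMSO replicate 1 or i-BET151 replicate 1 or 2, 3 without DMSO replicate 2 or 3). At 24 h 16 to 26 were called with i-BET858, 1 to 2 lower and 15 to 24 higher, and 10 to 19 with i-BET151, 1 to 2 lower and 9 to 17 higher (11 called without i-BET151 replicate 1 and 10 without replicate 2). The change between times was called in 16 to 25 genes with i-BET858 and 5 to 9 with i-BET151 (5 without i-BET151 24 h replicate 2). NUSAP1 and PRC1 are limited by their low counts.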
